A study of Sus scrofa with 18 samples.

Results

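Amino acid breakdown enzymes are the liver proteins that strip nitrogen from amino acids and pass their carbon skeletons on to glucose, ketone bodies or energy. The genes were chosen by name, as a list of 52 enzymes that open or carry the degradation of single amino acids, and 38 of them were represented by a named probe set, out of 12307 named genes on the array. The remaining 14 (KMO, HGD, FTCD, GLDC, AMT, GCSH, SHMT1, TDH, CBS, CSAD, MCCC1, ACAD8, PRODH and ALDH4A1) were not analysed here. No filter on low values was applied to the 38, so that all of them entered every count below.

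Liver RNA came from 18 male crossbred pigs of Piétrain, German Landrace and German Edelschwein descent, each measured on 1 Affymetrix Porcine Gene 1.0 ST array. Group IM10 (6 arrays) was fed 10% meal of mealworm larvae (Tenebrio molitor L.), which took the place of 100% of the soybean extraction meal. Group IM5 (6 arrays) was fed 5%, which took the place of 50%, and group CON (6 arrays) was fed soybean extraction meal with 0% insect meal. Pigs entered the trial at 5 weeks of age, were fed for 4 weeks and killed in the fed state on day 29, and 6 of the 10 pigs of each group had been picked at random for the arrays. Pigs shared pens within a group, and the sources used here do not say which ones did, so that p-values measure the spread between pigs with no account of pens. The diets had equal nitrogen, but they also differed in cellulose, rapeseed oil, safflower oil, corn starch and calcium carbonate. Supplements of lysine, methionine, threonine, tryptophan, glutamic acid and cysteine differed as well. The insect meal and these other parts of the diets cannot be told apart. Values are log2 expression values after robust multi-array averaging (RMA), given as mean ± SD, with n = 6 pigs per group.

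The liver breaks down most amino acids of the diet, whereas the first step of leucine, isoleucine and valine breakdown takes place largely in muscle. Tryptophan, tyrosine, histidine and methionine are degraded mainly by hepatocytes, and several of the enzymes involved are known to respond to dietary protein, glucagon and glucocorticoids. Glutamate and alanine stand where these routes meet, because most amino groups pass through them on the way to urea.

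Array medians lay between 5.05 and 5.15, and the correlation between any 2 arrays lay between 0.986 and 0.992. The hepatocyte genes ALB, APOA1, SERPINA1, FGB and AHSG were at 11.45 or more in every pig. Over the whole table, 0 of 25388 probe sets had an adjusted p under 0.05 in any comparison of 2 groups (limma, Benjamini-Hochberg adjustment). The number with an unadjusted p under 0.05 was 1541 for IM10 against CON, 1452 for IM5 against CON and 1372 for IM10 against IM5. Markers of smooth muscle, of which 4 of 6 listed genes were measured, averaged between 5.20 and 6.66 in the pigs of group IM10, between 5.18 and 7.76 in group IM5 and between 4.82 and 5.80 in group CON. Markers of mast cells (3 of 4 genes) averaged between 4.72 and 5.00 in group IM10, while group IM5 spanned 4.56 to 5.22 and group CON 4.30 to 4.78. Their part in the differences below was not tested, and in a tissue sample fewer cells of a type and less RNA per cell cannot be told apart.

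The comparison of group IM10 with group CON asks how these enzymes differed when all soybean meal was replaced. Of the 38 genes, 1 met the criteria of the study's methods (fold change over 1.2 and unadjusted p under 0.05), which was GLS2, and it was lower in group IM10. Over all probe sets, 2.07% met the same criteria in this comparison (0.8% with a lower level), so that the count among the enzymes was close to the background. A total of 16 genes had higher and 22 lower means in group IM10 than in group CON, with a median log2 difference of -0.01, against -0.00 over all named genes. Of all named genes, 49.04% had a higher mean in IM10. Among those with a mean of at least 5, which 36 of the 38 reached, the share was 44.75% and the median -0.01. The differences ran between -0.33 and 0.15. The unadjusted p of limma was under 0.05 for 2 genes (SDS and GLS2), against 6.07% of all probe sets. The 95% confidence interval of the difference lay inside 1.2-fold in either direction (0.263 on the log2 scale) for 23 of the 38 genes, against 52.9% of all probe sets. For these 23 genes a difference of 1.2-fold or more lay outside the interval, whereas for the other 15 it lay within it.

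In group IM5, 0 of the 38 genes met the criteria against group CON, with a background of 1.92% over all probe sets. The unadjusted p of limma was under 0.05 for 2 genes, KYNU and PCCA, which were both lower in group IM5, against 5.72% of all probe sets. A total of 18 genes had higher and 19 lower means, 1 was equal, and the median log2 difference was -0.01. The share with a higher mean in IM5 was 50.25% of all named genes and 47.89% of those with a mean of at least 5. The interval lay inside 1.2-fold for 19 genes, against 47.1% of all probe sets. Both insect meal groups were compared with the same 6 control pigs, so these comparisons are not independent of each other.

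Between group IM10 and group IM5, 1 of the 38 genes met the criteria, which was KYNU, and it was higher in group IM10. The background was 1.59% of all probe sets (0.827% with a higher level). The unadjusted p of limma was under 0.05 for 3 genes (KYNU, ACADSB and HIBCH), all with higher means in group IM10, against 5.4% of all probe sets. The interval lay inside 1.2-fold for 14 genes, against 47.3% of all probe sets. The dose trend over 0%, 5% and 10% insect meal, fitted by limma to all 18 arrays, met the criteria for 0 of 38 genes, against 1.87% of all probe sets, and 0 genes had an unadjusted p under 0.05, against 5.32%. The smallest adjusted p of the trend among the enzymes was 0.944.

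**Figure D1:**
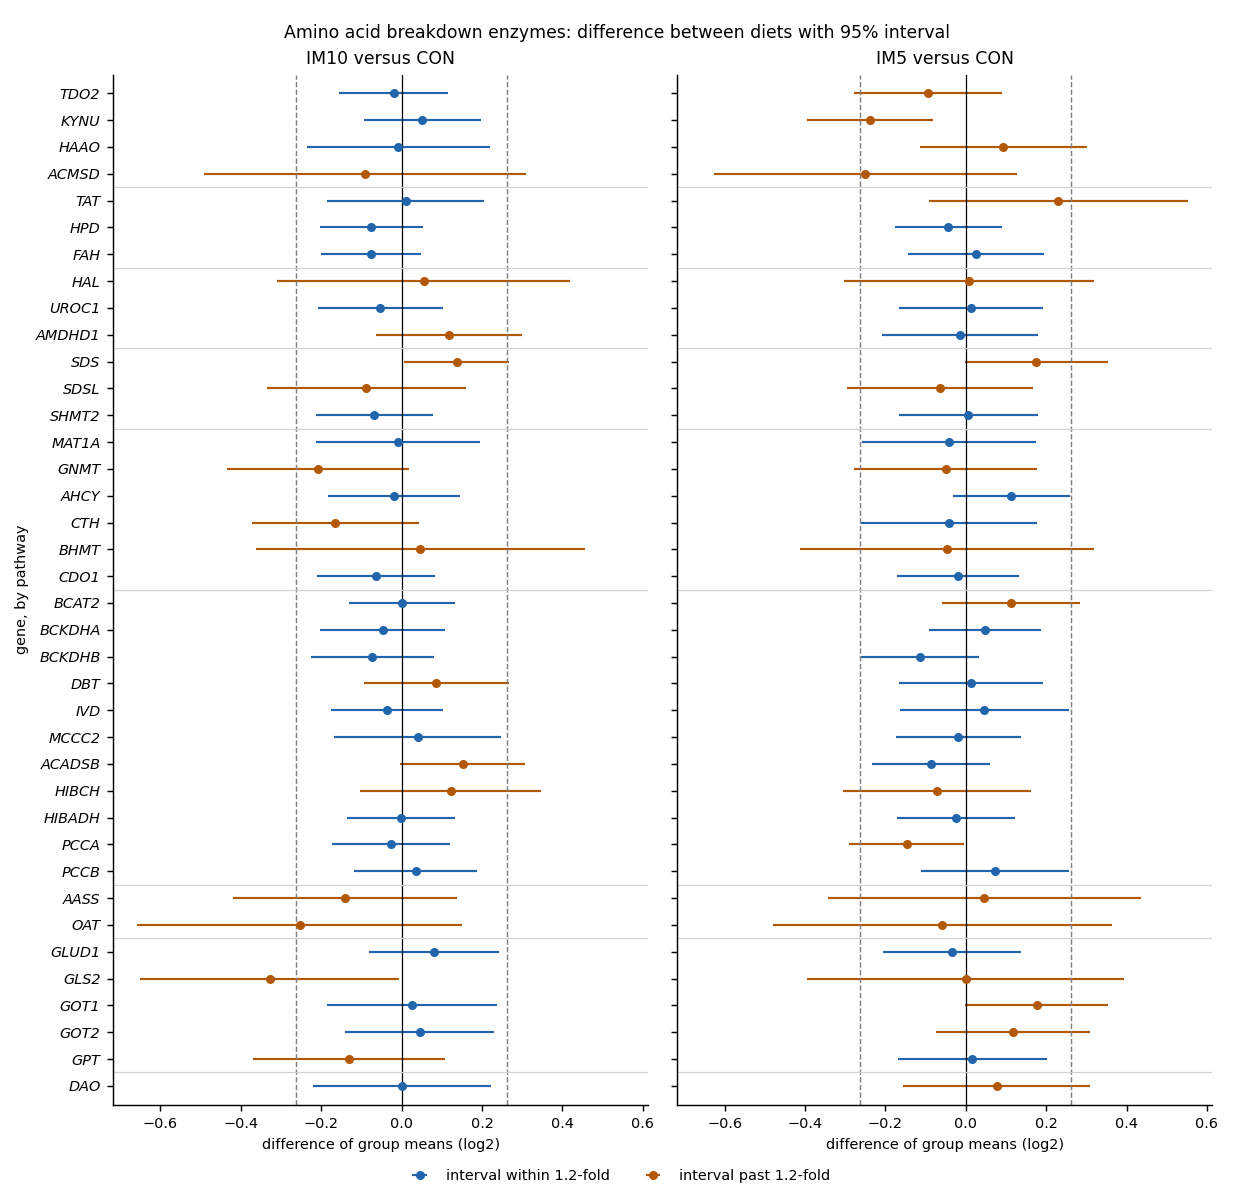
Difference of group means on the log2 scale (horizontal axis) for each of the 38 enzymes (vertical axis, in pathway blocks), for IM10 versus CON on the left and IM5 versus CON on the right. Points are differences, bars are 95% intervals of limma, dashed lines mark 1.2-fold, and intervals are blue where they stay inside it and orange where they pass it. The interval of GLS2 in IM10 versus CON ends at -0.01, just below 0, and 23 intervals on the left and 19 on the right stay between the dashed lines.

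Tryptophan breakdown was represented by 4 of 5 listed genes. TDO2 encodes the liver dioxygenase that opens the pathway, KYNU the kynureninase that cleaves kynurenine and 3-hydroxykynurenine, HAAO the enzyme that forms the precursor of quinolinate, and ACMSD the decarboxylase that diverts carbon away from NAD synthesis. KYNU (probe set 15235083) lay at a lowest of 8.67, a median of 8.81 and a highest of 8.91 in group IM10, at 8.37, 8.50 and 8.67 in group IM5, and at 8.62, 8.75 and 8.92 in group CON. Of the IM10 pigs, 5 lay above all 6 IM5 pigs, and the lowest IM10 pig equalled the highest IM5 pig, while the IM10 and CON pigs covered nearly the same range.

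KYNU averaged 8.80 ± 0.10 in group IM10 and 8.51 ± 0.11 in group IM5, a 1.22-fold higher level in IM10 (log2 difference 0.29, SE 0.07, limma p = 0.000984, adjusted p = 0.882; exact permutation test, p = 0.00433). Against group CON (8.75 ± 0.11), KYNU was 1.18-fold lower in group IM5 (log2 difference -0.24, SE 0.07, limma p = 0.00531, adjusted p = 0.863; exact p = 0.00866), which stayed under the fold criterion. The difference between IM10 and CON was 0.05, with an interval between -0.09 and 0.20. KYNU thus had its lowest mean at the middle dose, and both differences rest on the same 6 IM5 pigs. Without IM5 replicate 3, the lowest pig at 8.37, the difference between IM10 and IM5 was 0.26 and no longer met the fold criterion. Against CON, KYNU met the criteria only when CON replicate 3 or IM5 replicate 4 was left out.

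The other 3 tryptophan genes did not pass a test between any 2 diets. TDO2 averaged 10.99 ± 0.08 in IM10, 10.92 ± 0.18 in IM5 and 11.01 ± 0.10 in CON, and HAAO averaged 8.81 ± 0.19, 8.91 ± 0.13 and 8.82 ± 0.21 in the same groups. ACMSD spread widely between pigs of the same diet, at 5.89 ± 0.48 in IM10, 5.74 ± 0.45 in IM5 and 5.99 ± 0.25 in CON. Its difference between IM5 and CON was -0.25, about the size of that of KYNU, with an interval between -0.63 and 0.13, and it met the criteria when IM5 replicate 6 was left out.

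**Figure D2:**
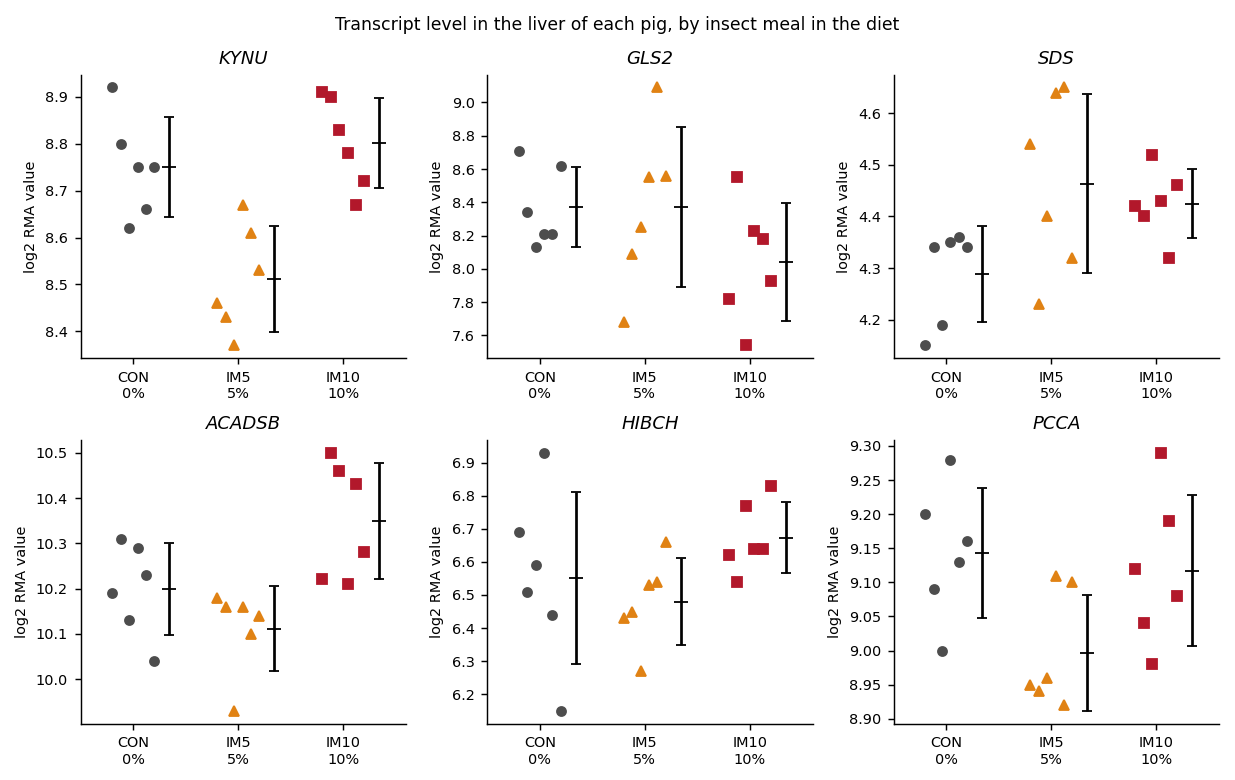
Log2 RMA value (vertical axis) of each pig in groups CON, IM5 and IM10, in order of the insect meal in the diet (horizontal axis), for KYNU, GLS2, SDS, ACADSB, HIBCH and PCCA. Points are pigs, bars are mean ± SD of 6 pigs, and the vertical axes differ between panels and do not start at 0. The IM5 pigs of KYNU average 8.51, below the IM10 and CON pigs, and all IM10 pigs of ACADSB lie above all IM5 pigs.

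Phenylalanine and tyrosine breakdown was represented by TAT, HPD and FAH. TAT encodes the aminotransferase that starts tyrosine breakdown and is a classic glucocorticoid target, HPD the dioxygenase of the next step, and FAH the hydrolase of the last step. FAH lay between 9.58 and 9.78 with a median of 9.69 in group IM10, between 9.58 and 9.93 with a median of 9.85 in group IM5, and between 9.69 and 9.88 with a median of 9.75 in group CON. The ranges of FAH overlapped in all 3 groups, although 3 of 6 IM10 pigs lay below every CON pig (log2 difference -0.08; exact permutation test, p = 0.0866).

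HPD was the steadiest of the 38 genes, with a spread within diets of 0.08, and averaged 10.87 ± 0.09 in IM10, 10.90 ± 0.08 in IM5 and 10.95 ± 0.07 in CON. For HPD, 4 of 6 IM10 pigs lay below all CON pigs, and the difference of -0.08 had an interval between -0.20 and 0.05. TAT averaged 9.83 ± 0.12 in IM10, 10.05 ± 0.38 in IM5 and 9.82 ± 0.20 in CON, and the higher mean and SD of IM5 came with 1 pig at 10.82, while the other 5 lay between 9.77 and 9.96.

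Histidine breakdown was represented by HAL, the ammonia-lyase of the first step, UROC1, the urocanate hydratase of the second, and AMDHD1, the hydrolase of the third. AMDHD1 had a lowest value of 7.87, a median of 8.05 and a highest of 8.21 in group IM10, against 7.66, 7.94 and 8.08 in group CON, and lay at 7.65, 7.94 and 8.03 in group IM5. In IM10, 2 pigs lay above every CON pig, and the difference of 0.12 did not pass the exact permutation test (p = 0.203). HAL and UROC1 differed by 0.06 and -0.05 between IM10 and CON and by 0.01 each between IM5 and CON. For HAL, whose pigs ranged between 6.23 and 7.18, the interval of IM10 against CON ran between -0.31 and 0.42.

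Serine, glycine and threonine breakdown was the group with the smallest share of its listed genes on the array, with SDS, SDSL and SHMT2, 3 of 8. SDS encodes serine dehydratase, which turns serine and threonine into gluconeogenic acids, SDSL a related dehydratase, and SHMT2 the mitochondrial enzyme that exchanges serine and glycine. SDS (probe set 15224584) lay at 4.32, 4.43 and 4.52 (lowest, median and highest) in group IM10, at 4.23, 4.47 and 4.65 in group IM5, and at 4.15, 4.34 and 4.36 in group CON. Of the IM10 pigs, 5 lay above all CON pigs, and so did 4 of the IM5 pigs.

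SDS was 1.10-fold higher in group IM10 (4.43 ± 0.07) than in group CON (4.29 ± 0.09), with a log2 difference of 0.14 (SE 0.06, limma p = 0.0419, adjusted p = 0.805; exact permutation test, p = 0.0108). It was the 1 gene of the 38 with an exact p under 0.05 in this comparison, against 5.86% of all probe sets. In IM5 the difference from CON was 0.18 with an exact p of 0.0563. SDS was at a low level for this array, and without detection calls its distance from background is not known. SDSL and SHMT2 differed by -0.09 and -0.07 between IM10 and CON, and by -0.07 and 0.01 between IM5 and CON.

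Methionine and cysteine breakdown was represented by 6 of 8 listed genes. MAT1A encodes the liver enzyme that makes S-adenosylmethionine, GNMT the glycine N-methyltransferase that uses up its surplus, and AHCY the hydrolase that yields homocysteine. BHMT returns homocysteine to methionine with betaine, CTH cleaves cystathionine to cysteine, and CDO1 oxidises cysteine. GNMT (probe set 15309840) lay at a lowest of 8.11, a median of 8.51 and a highest of 8.62 in group IM10, at 8.28, 8.60 and 8.85 in group IM5, and at 8.45, 8.59 and 8.91 in group CON. The groups overlapped, and the low mean of IM10 came with 2 pigs at 8.11 and 8.23, below all other pigs.

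The difference of GNMT between IM10 and CON was -0.21 (SE 0.11, limma p = 0.0696, adjusted p = 0.837; exact permutation test, p = 0.121). Of the 6 genes, 5 had lower means in IM10 than in CON, with differences between -0.21 and -0.01, and BHMT differed by 0.05. CTH differed by -0.17 (8.29 ± 0.21 in IM10, 8.45 ± 0.14 in CON), and 3 of 6 IM10 pigs were lower than every control pig (exact p = 0.141). MAT1A, AHCY and CDO1 had intervals inside 1.2-fold in both comparisons with CON. BHMT ranged between 10.20 and 11.21 over the pigs, and its intervals reached past 1.2-fold on both sides.

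Branched-chain amino acid and propionyl-CoA breakdown was represented by 11 of 13 listed genes. BCAT2 carries out the first transamination. BCKDHA, BCKDHB and DBT are subunits of the dehydrogenase complex that commits the ketoacids to breakdown. IVD and MCCC2 act on leucine, ACADSB on isoleucine, HIBCH and HIBADH on valine, and PCCA and PCCB are the subunits of propionyl-CoA carboxylase. Between IM10 and CON, 0 of the 11 met the criteria, the median difference was 0.00, and 8 intervals lay inside 1.2-fold. The same number lay inside it between IM5 and CON.

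ACADSB (probe set 15228951) lay at a lowest of 10.21, a median of 10.36 and a highest of 10.50 in group IM10, at 9.93, 10.15 and 10.18 in group IM5, and at 10.04, 10.21 and 10.31 in group CON. All 6 IM10 pigs were above all 6 IM5 pigs, the lowest at 10.21 and the highest at 10.18, and 3 of the IM10 pigs were above all CON pigs. It was the 1 gene of the 38 whose groups did not overlap, against 0.213% of all probe sets in this comparison.

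ACADSB was 1.18-fold higher in IM10 (10.35 ± 0.13) than in IM5 (10.11 ± 0.09), with a log2 difference of 0.24 (SE 0.07, limma p = 0.00537, adjusted p = 0.882; exact permutation test, p = 0.00216). This exact p is the smallest that 6 pigs against 6 can give. The difference did not reach the fold criterion, but did so without IM10 replicate 1 or IM10 replicate 4. Between IM10 and CON it was 0.15, with an exact p of 0.0606. An exact p under 0.05 between IM10 and IM5 was found for 3 of the 38 genes, against 5.59% of all probe sets.

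HIBCH was the third of these genes, after KYNU and ACADSB. It lay at 6.54, 6.64 and 6.83 (lowest, median and highest) in group IM10, against 6.27, 6.49 and 6.66 in group IM5, and ran between 6.15 and 6.93 with a median of 6.55 in group CON. The IM10 and IM5 pigs overlapped, and the CON pigs covered the range of both. HIBCH was 1.14-fold higher in IM10 than in IM5 (log2 difference 0.19, SE 0.08, limma p = 0.0222, adjusted p = 0.882; exact permutation test, p = 0.026).

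PCCA, the subunit that carries the biotin of propionyl-CoA carboxylase, lay at 8.92, 8.96 and 9.11 (lowest, median and highest) in group IM5, against 9.0, 9.15 and 9.28 in group CON, and at 8.98, 9.10 and 9.29 in group IM10. Of the IM5 pigs, 4 lay below all CON pigs. In group IM5 PCCA was 1.11-fold lower, compared with group CON (log2 difference -0.15, SE 0.07, limma p = 0.0455, adjusted p = 0.863; exact permutation test, p = 0.0195). With KYNU it made 2 of 38 genes with an exact p under 0.05 in this comparison, against 5.38% of all probe sets. Its partner subunit PCCB differed by 0.07 in the opposite direction, with an interval between -0.11 and 0.26, and a difference between the subunits was not tested.

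Lysine and ornithine breakdown was represented by AASS, which opens lysine degradation, and OAT, the ornithine aminotransferase. OAT lay at a lowest of 6.33, a median of 6.96 and a highest of 7.42 in group IM10, at 6.48, 7.15 and 7.74 in group IM5, and at 6.73, 7.09 and 7.54 in group CON. The ranges overlapped widely, with 2 IM10 pigs and 2 IM5 pigs below all CON pigs. The difference between IM10 and CON was -0.25 with an interval between -0.66 and 0.15 (exact permutation test, p = 0.273). OAT varied most of the 38 genes between pigs of the same diet. AASS differed by -0.14 between IM10 and CON, with an interval between -0.42 and 0.14.

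Glutamate, aspartate and alanine breakdown was represented by all 5 listed genes. GLS2 encodes the liver glutaminase, which releases ammonia from glutamine, GLUD1 the glutamate dehydrogenase, GOT1 and GOT2 the cytosolic and mitochondrial aspartate aminotransferases, and GPT the cytosolic alanine aminotransferase. GLS2 (probe set 15292590) lay at a lowest of 7.54, a median of 8.06 and a highest of 8.55 in group IM10, at 7.68, 8.40 and 9.09 in group IM5, and at 8.13, 8.28 and 8.71 in group CON. The groups overlapped. In IM10, 3 of 6 pigs lay below all CON pigs, while IM5 held both the highest pig of all and a pig at 7.68.

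GLS2 was 1.26-fold lower in group IM10 (8.04 ± 0.35) than in group CON (8.37 ± 0.24), with a log2 difference of -0.33 (SE 0.15, limma p = 0.0461, adjusted p = 0.815; exact permutation test, p = 0.0931). The mean of group IM5 (8.37 ± 0.48) equalled that of CON, with an interval of the difference between -0.39 and 0.39. GLS2 met the criteria against CON without CON replicate 3, 4 or 5 or IM10 replicate 2, 4 or 5. It did not when CON replicate 1, 2 or 6 or IM10 replicate 1, 3 or 6 was left out, with differences between -0.33 and -0.23. Nor did it with the methods' t-test, with the fit on all 18 arrays, with quantile normalization or with a robust variance prior. The means of the smooth muscle and mast cell markers given above were higher in IM10 than in CON, and those of the T and NK cell markers (7 of 7 genes) were 5.19 in IM10 and 5.33 in CON. Their part in the difference of GLS2 was not tested.

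The other 4 genes of this group did not meet the criteria between any 2 diets. GOT1 averaged 8.42 ± 0.22 in IM10, 8.57 ± 0.14 in IM5 and 8.39 ± 0.14 in CON, and its difference between IM5 and CON was 0.18 (exact permutation test, p = 0.0606). GOT2 and GLUD1 differed by 0.05 and 0.08 between IM10 and CON, and GPT by -0.13. DAO, the oxidase of D-amino acids, lay at 9.71, 9.83 and 10.26 (lowest, median and highest) in IM10, at 9.72, 9.92 and 10.25 in IM5, and at 9.68, 9.86 and 10.24 in CON. The ranges of DAO were nearly the same in all 3 groups.

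Further genes of the same pathways and their regulators were counted as a list of 83, of which 45 were measured. Between IM10 and CON, 0 of the 45 met the criteria, against 2.07% of all probe sets, and 3 had an unadjusted p under 0.05, against 6.07% of all probe sets, all with lower means in IM10. These were GCDH of lysine and tryptophan breakdown (-0.24, exact permutation test, p = 0.0173), MTRR, which reactivates methionine synthase (-0.22, exact p = 0.0519), and GCAT of threonine breakdown (-0.19, exact p = 0.0433). Their adjusted p in limma ranged between 0.699 and 0.796. MTRR was also lower in IM5 than in the same CON pigs (-0.25, exact permutation test, p = 0.0173).

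Between IM5 and CON, 1 of the 45 met the criteria, against 1.92% of all probe sets, which was GPT2, the mitochondrial alanine aminotransferase. Its IM5 pigs lay at 6.41, 6.94 and 8.47 (lowest, median and highest), against 6.05, 6.42 and 6.65 in CON, and its IM10 pigs spread between 5.71 and 7.63. GPT2 was 1.68-fold higher in IM5 than in CON (log2 difference 0.75, SE 0.26, limma p = 0.0112, adjusted p = 0.863; exact p = 0.0173), and 4 of 6 IM5 pigs lay above all CON pigs. Without IM5 replicate 5, the pig at 8.47, the mean of IM5 was 6.87 and the difference 0.48 (exact permutation test, p = 0.026). This omission of single pigs was chosen after seeing the data. It left GPT2 within the criteria each time, and the exact p was over 0.05 only without CON replicate 5 (p = 0.0541). Its cytosolic counterpart GPT differed by 0.02 in the same comparison.

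Between IM10 and IM5, 1 of the 45 met the criteria, against 1.59% of all probe sets, which was GCAT, at 7.51 ± 0.15 in IM10 and 7.78 ± 0.04 in IM5, with all IM10 pigs below all IM5 pigs (exact permutation test, p = 0.00216), against 0.213% of all probe sets whose groups did not overlap. Without IM10 replicate 1 or IM5 replicate 5 its difference was -0.21 or -0.26 and no longer met the fold criterion. The 5 measured regulators were HNF4A, CEBPA, CEBPB, FOXO1 and NR3C1. The transcription factors HNF4A and CEBPA, which maintain hepatocyte gene expression, had lower means in IM10 than in IM5, by -0.26 (exact p = 0.0152) and -0.25 (exact p = 0.0238), and neither met the fold criterion. In IM5 against CON the differences were 0.23 for CEBPA (exact permutation test, p = 0.0216) and 0.10 for HNF4A (exact p = 0.405), and these comparisons share the IM5 pigs. The mean of CEBPA was 7.95 ± 0.17 in IM10, 8.21 ± 0.15 in IM5 and 7.98 ± 0.11 in CON. FOXO1 had the largest differences of the 5 regulators, -0.31 in IM10 against IM5 and 0.32 in IM5 against CON. It averaged 5.21 ± 0.21 in IM10, 5.52 ± 0.39 in IM5 and 5.20 ± 0.25 in CON, and met the criteria in neither comparison. Of the 45 genes, 4 had an exact p under 0.05 in IM10 against IM5, against 5.59% of all probe sets. In IM5 against CON there were 3, against 5.38%.

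The enzymes differed in how much pigs of the same diet varied. The SD within diets had a median of 0.149 over the 38 genes, against 0.156 over all named genes, and ran between 0.08 for HPD and 0.42 for OAT. Over the 7196 named genes with a mean of at least 5, which 36 of the 38 genes reached, the median was lower, at 0.141. A total of 7 genes (OAT, ACMSD, GLS2, BHMT, AASS, HAL and TAT) were among the 10% of named genes with the largest spread, and 14 were among the 25% with the smallest. Between the highest and the lowest of the 18 pigs, GLS2 differed 2.93-fold, OAT 2.66-fold and AASS 2.57-fold, whereas HPD differed 1.22-fold and CDO1 1.25-fold.

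**Figure D3:**
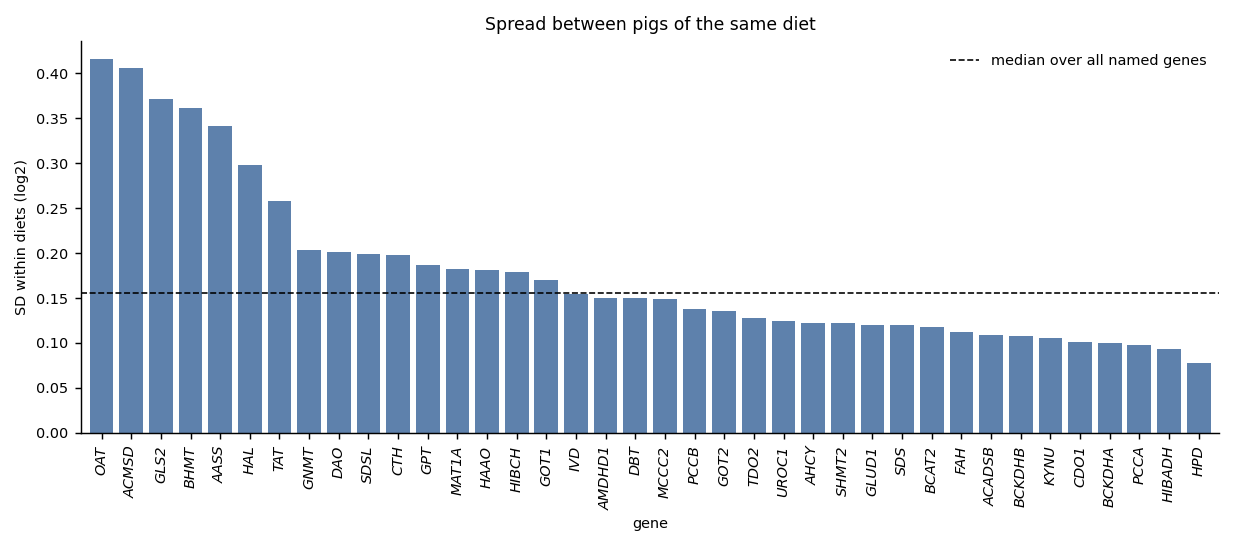
SD within diets on the log2 scale (vertical axis, starting at 0), pooled over the 3 diets of 6 pigs each, for each of the 38 enzymes (horizontal axis), largest first. The dashed line is the median of 0.156 over all named genes. OAT, ACMSD, GLS2, BHMT, AASS, HAL and TAT stand above the rest.

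To compare how enzymes varied between pigs of the same diet, the group mean was removed from each value, and all 703 pairs of the 38 genes were compared across the 18 pigs by Pearson's r, with 100000 permutations within diets and Benjamini-Hochberg adjustment over the 703 pairs. A total of 9 pairs had an adjusted p under 0.05, of which 7 were positive and 2 negative, and 2 lay within 1 pathway. At an r of 0.7 or more in size stood 2.28% of these pairs, against 0.429% of all pairs of named genes, and 62% of the pairs were positive, against 50.2%. Among named genes with a mean of at least 5, these shares were 0.569% and 52.2%. IM5 replicate 5 was the highest pig of 9 of the 38 genes. Without it, 1.56% of the enzyme pairs and 0.586% of all pairs of named genes stood at 0.7 or more. In that setting 4 pairs, 2 of them negative, remained under the threshold.

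**Figure D4:**
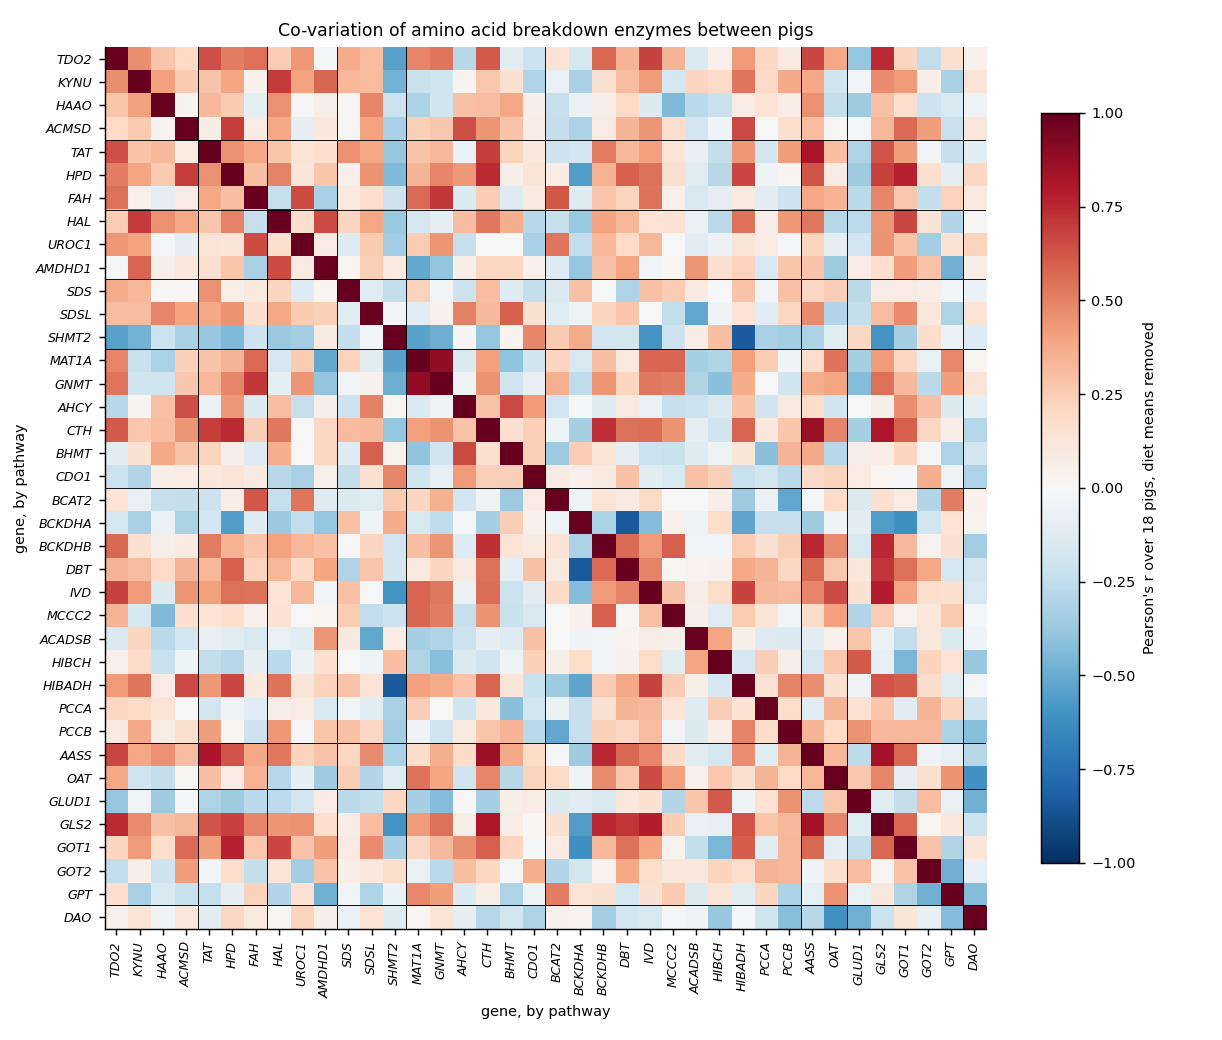
Pearson's r of each pair of the 38 enzymes over 18 pigs after removal of the diet means, as colour from -1 (blue) to 1 (red), with genes in pathway blocks on both axes. The rows of GLS2, AASS and CTH share a red pattern, with r between 0.81 and 0.86 among these genes, and MAT1A and GNMT form a red block with r = 0.89.

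MAT1A and GNMT, which make and use S-adenosylmethionine, varied together most closely (r = 0.89, p = 2e-05, adjusted p = 0.0141; rho = 0.86, p = 7e-05, adjusted p = 0.0176, permutation test). Within diets r was 0.94 in IM10, 0.92 in IM5 and 0.79 in CON, and it was 0.88 without the 2 pigs farthest from the median of MAT1A. In each diet the pig with the lowest GNMT was among the 2 lowest of MAT1A. IM10 replicate 1 had 9.87 for MAT1A and 8.11 for GNMT, and CON replicate 6 had 10.37 and 8.91. The adjusted p stayed under 0.05 whichever of the 18 pigs was left out, with r between 0.87 and 0.93. When the pigs were split at the widest gap in their deviations of MAT1A (0.088), r was 0.69 within the 11 higher pigs and 0.29 within the 7 lower ones. Such a cut narrows the range of MAT1A and tends to lower r. These values therefore cannot tell whether the relation was weaker among the lower pigs.

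AASS, CTH and GLS2, which act on lysine, cystathionine and glutamine, gave 3 pairs with an adjusted p under 0.05. For CTH and AASS r was 0.86 (p = 0.0001, adjusted p = 0.0141; rho = 0.82, p = 0.00013, adjusted p = 0.0183, permutation test), with 0.96 in IM10, 0.97 in IM5 and 0.50 in CON. For AASS and GLS2 r was 0.83 (p = 6e-05, adjusted p = 0.0141; rho = 0.81, p = 7e-05, adjusted p = 0.0176, permutation test), with 0.84 in IM10, 0.84 in IM5 and 0.82 in CON. For CTH and GLS2 r was 0.81 (p = 0.00043, adjusted p = 0.0484; rho = 0.84, p = 9e-05, adjusted p = 0.0176, permutation test), with 0.80 in IM10, 0.91 in IM5 and 0.51 in CON.

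These 3 relations changed with the pigs included. Of the 18 omissions of 1 pig, an adjusted p under 0.05 was found in 17 for AASS and GLS2, in 15 for CTH and AASS and in 6 for CTH and GLS2. AASS and GLS2 had 0.0601 without IM5 replicate 2, and CTH and AASS had 0.051 without IM5 replicate 1, 0.145 without IM5 replicate 5 and 0.0542 without IM10 replicate 2. IM5 replicate 5 and IM10 replicate 2 were the farthest from the median of CTH and from that of AASS. For GLS2, IM5 replicate 1 deviated more from its diet mean than IM10 replicate 2 (-0.69 against 0.51). IM5 replicate 5 had 8.55 for AASS, 8.83 for CTH and 9.09 for GLS2, the highest of all pigs in each. IM10 replicate 2 had 7.87, 8.57 and 8.55, the highest of its group in each. Without both pigs r was 0.72 for CTH and AASS, 0.70 for AASS and GLS2 and 0.65 for CTH and GLS2. Without IM5 replicate 5 alone, AASS and GLS2 kept an adjusted p of 0.0439, whereas CTH and GLS2 had 0.195.

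TAT and AASS had an r of 0.81 that did not pass the adjustment (p = 0.00762, adjusted p = 0.196; rho = 0.52, p = 0.0357, adjusted p = 0.38, permutation test). Within diets r was 0.48 in IM10, 0.95 in IM5 and 0.59 in CON. It was 0.48 without IM5 replicate 5 alone, and between 0.81 and 0.84 without any other single pig, so that the relation rested on IM5 replicate 5. Without that pig and CON replicate 6, the 2 farthest from the median of TAT, r was 0.53. IM5 replicate 5 was also the highest of all pigs for TDO2, TAT, SDS, IVD, PCCB and OAT, and for GPT2 with 8.47. Among the markers, its T and NK cell mean of 4.74 was the lowest of all pigs and its Kupffer cell mean of 8.03 the highest. Its erythroid mean of 4.82 (3 of 6 genes) was also the highest, with IM5 replicate 3 next at 4.81. The part of these cell types in the values was not tested.

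IVD and GLS2 had an r of 0.79 (p = 0.00059, adjusted p = 0.0484; rho = 0.73, p = 0.00244, adjusted p = 0.122, permutation test). It was 0.94 in IM10 and 0.93 in IM5 but 0.06 in CON, and a difference between the diets was not tested. Without the 2 pigs farthest from the median of IVD, r was 0.69. Without IM5 replicate 1 alone it was 0.69 as well, with an adjusted p of 0.206, and the adjusted p was under 0.05 in 4 of the 18 omissions of 1 pig. The other 2 pairs that passed the adjustment were HPD with GOT1 and BCKDHB with GLS2, with r = 0.78 and r = 0.75 and an adjusted p of 0.0484 each (permutation test). Their adjusted p was under 0.05 in 6 and in 2 of the 18 omissions, so that these relations depended on the pigs included.

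The 2 negative pairs were of different shape. SHMT2 and HIBADH, the mitochondrial serine enzyme and a dehydrogenase of valine breakdown, had an r of -0.83 (p = 0.0001, adjusted p = 0.0141; rho = -0.79, p = 0.0004, adjusted p = 0.0402, permutation test). Within diets r was -0.74 in IM10, -0.88 in IM5 and -0.84 in CON, and it was -0.81 without IM5 replicate 2 and IM5 replicate 4. Leaving out 1 pig gave r between -0.87 and -0.74 and an adjusted p under 0.05 in 15 of 18 omissions. The adjusted p was 0.0855 without IM5 replicate 2 (r = -0.74), 0.0534 without IM5 replicate 1 and 0.0542 without IM10 replicate 2.

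BCKDHA and DBT, which encode subunits of the same dehydrogenase complex, fell into 2 clouds of pigs. The 2 pigs of each diet with the highest BCKDHA were the 2 with the lowest DBT. In IM10 these were replicates 3 and 6, with 7.52 and 7.54 for BCKDHA and 8.03 and 8.05 for DBT. In IM5 they were replicates 1 and 4, with 7.53 and 7.55 for BCKDHA and 7.95 and 7.98 for DBT, and in CON they were replicates 3 and 5, with 7.49 and 7.58 for BCKDHA and 7.97 and 7.99 for DBT. The other 12 pigs lay at 7.45 or below for BCKDHA and at 8.11 or above for DBT. Within the 12 pigs r was -0.43 and within the 6 pigs it was 0.34. A cut at a gap in BCKDHA narrows the range of that gene and tends to lower r. These values therefore cannot tell whether the negative relation rested on the separation of the clouds. Leaving out 1 pig gave r between -0.88 and -0.82, with an adjusted p under 0.05 in 18 of 18 omissions (permutation test). The third subunit gene, BCKDHB, did not pass with either (r = -0.31, adjusted p = 0.684 with BCKDHA and r = 0.56, adjusted p = 0.313 with DBT, permutation test), and was named after its values were seen.

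**Figure D5:**
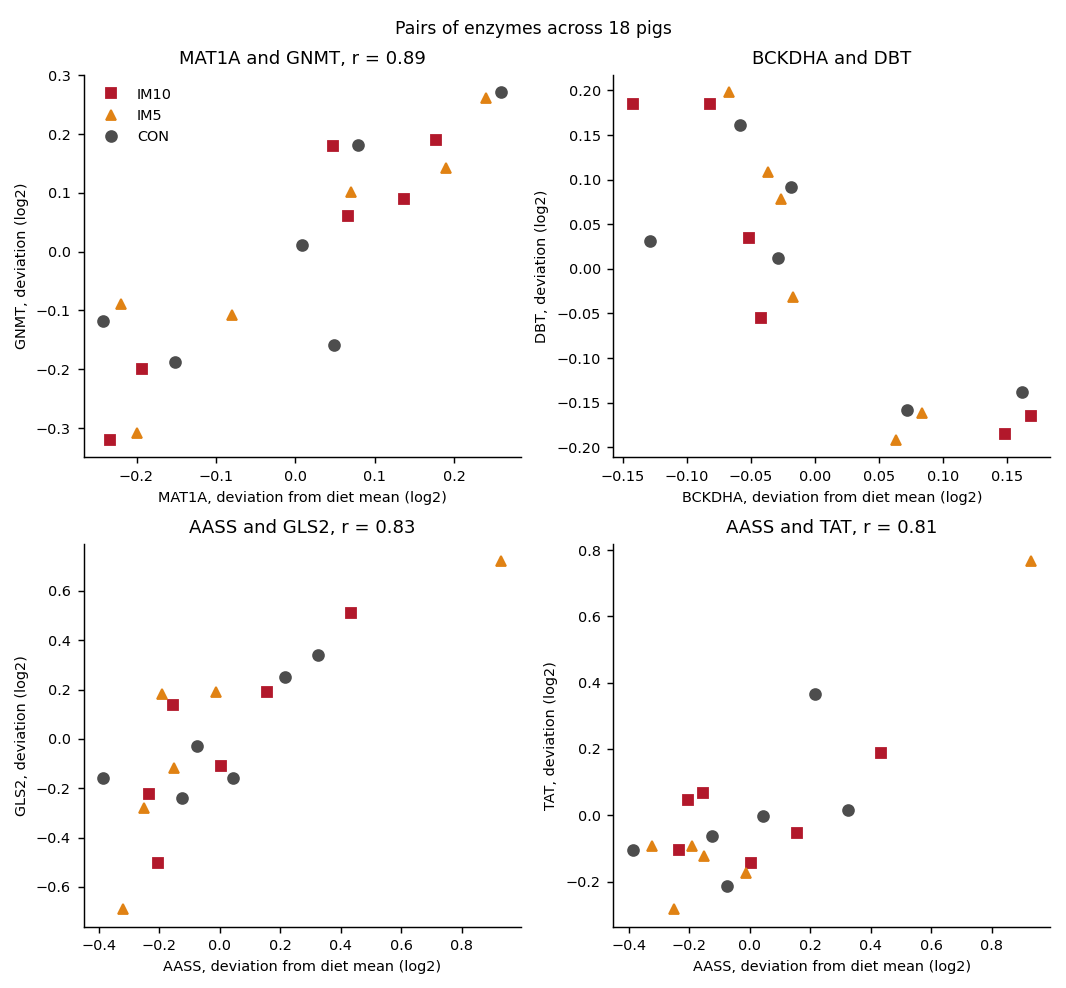
Deviation of each pig from its diet mean on the log2 scale for 4 pairs of enzymes, with 6 pigs each of group IM10 (squares), IM5 (triangles) and CON (circles). MAT1A and GNMT have r = 0.89 over the 18 pigs, BCKDHA and DBT form 2 clouds of 6 and 12 pigs, and 1 IM5 pig stands at the upper right of AASS against GLS2 and of AASS against TAT.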

How the data were processed

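RNA from the liver of 18 pigs was hybridised to Affymetrix Porcine Gene 1.0 ST arrays, 1 array per pig. The values are log2 expression values deposited by the authors, made by robust multi-array averaging (RMA) in Affymetrix Expression Console, whose version is not given in the sources used here. The base of the logarithm follows from that method. The table held 25388 probe sets, of which 13257 had 1 gene symbol in the platform annotation, 427 several genes and 11704 none listed. A gene with several probe sets was represented by the one with the highest mean over all arrays. The number of arrays limits the precision, and no detection calls were used.

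Groups followed the labels (6 pigs each). The model was limma 3.58.1 (R 4.3.3), fitted for each pair of groups to their 12 arrays without covariates and for the dose trend to all 18 arrays, which is given as the change over 0% to 10% insect meal. The thresholds of the study's methods (fold change over 1.2, p under 0.05) were applied to the p of limma in place of the t-test of those methods. They are given with p-values adjusted by Benjamini-Hochberg over all 25388 probe sets. Single genes were also compared by a two-sided exact permutation test over pigs (924 arrangements, smallest p = 0.00216). Pairs of genes were compared in Python 3.11.15 with numpy 2.4.6, pandas 2.3.3 and scipy 1.17.1. The model and the tests were tested on simulated data. The 52 genes and the further list were chosen with earlier results of these data known. Lowest, median and highest pigs are given for genes that met the criteria or had an exact p under 0.05 between 2 groups, and otherwise for the gene of a pathway with the smallest exact p for IM10 against CON. Of the pairs, the 8 with the largest r in size are described. Alternatives were the methods' t-test, a fit on all arrays, quantile normalization, centring, omission of dim probe sets (mean under 5), the mean of a gene's probe sets, a trended and robust variance prior, no fold criterion, a replicate block and omission of each pig. No sequences or coordinates are given.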

Additional observations from a re-analysis of the deposited data

Results flagged for a closer look

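Of 114 combinations of gene and diet, 9 had a pig that stood apart from the other 5 of its diet by Dixon's criterion, which chance gives in about 1 in 20. In group IM5, replicate 5 was the highest for TAT at 10.82 (next pig 9.96), for AASS at 8.55 (next pig 7.61) and for BCKDHB at 8.06 (next pig 7.87). In the same group replicate 3 was the lowest for ACADSB at 9.93 (next pig 10.10), and replicate 4 was the highest for GPT at 5.18 (next pig 4.96). In group IM10, replicate 5 was the lowest for SDSL at 6.32 (next pig 6.72), replicate 2 the highest for HIBADH at 8.98 (next pig 8.80) and replicate 3 the highest for DAO at 10.26 (next pig 9.91). In group CON, replicate 3 was the lowest for PCCB at 8.67 (next pig 8.87).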

How the results depend on the processing

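In IM10 against CON, the count of genes that met the criteria (1) was 0 with the methods' t-test, the fit on all 18 arrays, quantile normalization and the trended and robust variance prior, 2 with no fold criterion (GLS2 and SDS), and 0 to 1 when 1 pig was left out. In IM5 against CON (0) it was 2 with no fold criterion (KYNU and PCCA) and 0 to 1 without 1 pig. In IM10 against IM5 (1) it was 3 with no fold criterion and 0 to 2 without 1 pig. For the dose trend (0) it was 0 to 1 without 1 pig, with GLS2 called without IM10 replicate 2. The number of genes with an exact p under 0.05 was 2 with quantile normalization against 1 for IM10 and CON (1 to 4 without 1 pig) and 4 against 2 for IM5 and CON (2 to 5 without 1 pig). It was 3 to 5 without 1 pig against 3 for IM10 and IM5. Of the 9 correlated pairs, the alternatives gave 7 to 9, and omission of each pig, chosen after seeing the data, gave 3 to 12, with 3 without IM5 replicate 1, 4 without IM5 replicate 2, IM5 replicate 5 or IM10 replicate 2, and 5 without IM10 replicate 3. The cause of these shifts was not tested. The differences of KYNU, ACADSB, HIBCH, PCCA and SDS kept their direction and an exact p under 0.05 in the alternatives run for them. GLS2 kept its direction, with an exact p between 0.0281 (without IM10 replicate 2, difference -0.43) and 0.195. Over all probe sets, 526, 488, 404 and 475 met the criteria in IM10 against CON, IM5 against CON, IM10 against IM5 and the dose trend, against 229, 219, 183 and 189 with dim probe sets left out and 1541, 1452, 1372 and 1351 with no fold criterion, and 320 with the methods' t-test in IM5 against CON. Pigs of the same replicate number correlated between -0.14 and 0.20 over 18 pairs, with 4 over 0.1. Of the 18, 7 correlated best with their own number among the 6 pigs of the other group. No chance level was computed for these counts, so whether replicate numbers paired the pigs was not tested. With a replicate block the counts of genes were 1, 0, 1 and 0, as without it. The limma p of KYNU in IM10 against IM5 was 0.00556 with the block and 0.000984 without it. SDS and GPT averaged under 5, where array signal limits what can be told.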
